A study of Rattus norvegicus with 96 samples.

Results

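The miR-181 family comprised 5 of the 107 microRNAs listed in the small RNA count tables of prefrontal cortex (PFC), visceral adipose tissue (VAT), kidney and liver. Members were chosen by name, as every row that began rno-miR-181. All 5 were listed in the PFC table of 91 rows, and 2 of them, miR-181a-5p and miR-181b-5p, were also listed in the tables of VAT (64 rows), kidney (58 rows) and liver (52 rows). The 48 libraries came from 12 male Sprague Dawley rats aged 9 weeks at the end of the study, with 1 library per rat and tissue. For 2 weeks, 6 rats (animals 2, 4, 5, 8, 10 and 12) were fed a whole egg diet (egg) and 6 rats (animals 1, 3, 6, 7, 9 and 11) a casein diet (casein), and the protein content of the diets was matched. All rats were fasted overnight before collection, the VAT was the epididymal depot, and neither diet group carried a genetic change.

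MicroRNAs are short RNAs that guide Argonaute proteins to messenger RNAs. Pairing runs mainly through the seed, bases 2 to 8 of the mature strand, so microRNAs with a shared seed are grouped as a family. The miR-181 family is conserved among vertebrates and is abundant in brain, and in mice miR-181a is known for tuning the sensitivity of the T cell receptor in developing thymocytes. Each hairpin precursor can give a 5p and a 3p strand, which have different seeds.

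The mature sequences are shown because the family divides by seed and because the 5p members are nearly alike, which bears on how reads can be told apart. They were taken from RefSeq (build GRCr8), where 5 of 5 members were matched by name, and the seed is in capitals.
miR-181a-5p: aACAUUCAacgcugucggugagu
miR-181b-5p: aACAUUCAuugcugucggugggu
miR-181c-5p: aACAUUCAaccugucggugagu
miR-181d-5p: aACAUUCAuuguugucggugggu
miR-181a-1-3p: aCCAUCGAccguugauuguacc

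The 4 listed 5p members shared the seed ACAUUCA, and no other mature rat microRNA in the RefSeq table held it. The seed of miR-181a-1-3p, CCAUCGA, was shared with 1 other RefSeq entry, miR-181c-3p, which the count tables did not list. Counted from the 5′ end, miR-181b-5p differed from miR-181a-5p at 3 positions (A9U, C10U and A21G), all outside the seed. Between miR-181b-5p and miR-181d-5p there was a single difference, C12U. The sequences of miR-181a-5p (23 bases) and miR-181c-5p (22 bases) were 1 edit apart. The number of mismatches allowed when the authors aligned the reads is not given in the sources used here, so exchange of reads between these near-identical members is uncertain and was not tested.

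RefSeq placed the family at 6 loci in 3 clusters of the GRCr8 assembly. Overlaps with other genes were taken by position, without regard to strand. On chromosome 13, Mir181a-1 and Mir181b1 lay 61 bases apart, and both overlapped the long non-coding RNA gene LOC108352541. Mir181a-1 also overlapped the microRNA gene Mir3570. Mature miR-181a-5p was at chr13:52037081-52037103, miR-181a-1-3p at chr13:52037121-52037142 and miR-181b-5p at chr13:52037263-52037285, all on the plus strand. On chromosome 3, Mir181a2 and Mir181b2 lay 986 bases apart, and both overlapped the protein-coding gene Nr6a1 and the non-coding LOC120101539. The same mature miR-181a-5p and miR-181b-5p sequences were found at these loci, at chr3:43025601-43025623 and chr3:43026680-43026702. On chromosome 19, Mir181c and Mir181d lay 77 bases apart with no overlapping annotated gene, and their 5p strands were at chr19:40888314-40888335 and chr19:40888484-40888506. A count of miR-181a-5p or miR-181b-5p therefore sums 2 loci, whereas miR-181a-1-3p is named for the chromosome 13 locus alone.

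The total microRNA count per library was 294445 to 2093706 in PFC, 44390 to 1536300 in VAT, 187169 to 1345947 in kidney and 845543 to 1870868 in liver. Markers of brain and liver went with the tissue labels. In PFC 6 of 10 markers of brain were listed and together took 11.4% to 31.8% of its counts. VAT and kidney each listed 1 of the 10, miR-9a-5p, at no more than 1.82% of a library, and liver listed 0. The comparison of brain markers therefore rests on miR-9a-5p, at 9.60% to 29.4% in PFC, and gives no level for liver. Hepatocyte miR-122-5p took 22.6% to 46.8% of liver counts and at most 4.45% elsewhere. The kidney list did not separate kidney, since its summed share had a median of 21.8% in kidney and 23.8% in liver, with miR-192-5p at 3.99% in kidney and 11.7% in liver, and miR-204-5p at 0.0596% in kidney and 0.203% in PFC. The list for fat stroma was highest in VAT (median 50.3%) and rested on miR-10b-5p. There were 2 libraries that stood apart. The VAT library of animal 12 (egg) had the smallest total (44390), 31.5% miR-10b-5p against 43.7% to 56.4% in the other VAT libraries, and 1.82% of brain-enriched miR-9a-5p against at most 0.398%. The PFC library of animal 9 (casein) held 13.8% miR-10b-5p against at most 2.11% in the other PFC libraries, and 9.60% miR-9a-5p against at least 19.5%. Of the 6 brain markers listed in PFC, this library was lowest for miR-9a-5p, miR-128-3p and miR-129-5p, and highest for miR-153-3p (0.682%, next 0.0747%), miR-338-3p (0.209%, next 0.0518%) and miR-488-3p (0.460%, next 0.0910%). Results that rest on them are also given without them, and the part of these differences in the results was not tested.

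The family was most abundant in PFC. Abundance is given as a share, the percentage of all microRNA counts listed for a library. The summed share of the listed members was 4.22% to 10.1% in PFC (median 6.45%, n = 12), 0.401% to 3.74% in VAT (median 0.777%), 0.668% to 1.01% in kidney (median 0.863%) and 0.174% to 0.411% in liver (median 0.260%). Every PFC library lay above every library of the other tissues. Without animal 12 the VAT median was 0.763%. The medians of VAT and kidney differed by less than the spread over rats. A share is relative to the other microRNAs of its own table, and in bulk tissue fewer cells that express a microRNA and less of it per cell cannot be told apart.

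MiR-181a-5p carried most of the family's counts in each tissue. Its share was 3.08% to 7.63% in PFC (median 4.90%), 0.355% to 3.22% in VAT (median 0.710%), 0.563% to 0.719% in kidney (median 0.645%) and 0.140% to 0.362% in liver (median 0.238%). The PFC range lay above that of kidney and liver and reached down to 3.08%, below the single VAT library of animal 12 at 3.22% (95% Wilson interval 3.06% to 3.39%), while the other VAT libraries were at or under 0.832%. Among the microRNAs of a PFC library, miR-181a-5p ranked between place 2 and place 10 by count, against place 8 to 21 in VAT, 14 to 22 in kidney and 21 to 30 in liver. Kidney and liver ranges did not overlap, and VAT and kidney ranges did.

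MiR-181b-5p followed the same division between PFC and the other tissues but not the same order among these. Its share was 0.548% to 1.97% in PFC (median 1.26%), 0.0460% to 0.523% in VAT (median 0.0866%), 0.103% to 0.331% in kidney (median 0.213%) and 0.0144% to 0.0492% in liver (median 0.0220%). All PFC values exceeded those of the other tissues, the lowest being that of animal 9. Outside PFC the median was highest in kidney, where 11 of 12 rats had a higher share of miR-181b-5p than in their own VAT, with animal 12 as the exception. In animal 3 the shares were nearly equal, at 0.1165% in kidney and 0.1164% in VAT. The kidney share of miR-181b-5p divided the rats, as described under Other observations. For miR-181a-5p only 6 of 12 rats had a higher share in VAT than in kidney, so by share kidney and VAT had no common order for these 2 members. These counts of rats depended on the denominator. Without the most abundant microRNA of each table, miR-181a-5p was higher in VAT in every rat but animal 9, with medians of 1.32% in VAT and 0.929% in kidney. For miR-181b-5p, animals 3, 6, 10 and 12 were then higher in VAT, with medians of 0.177% in VAT and 0.298% in kidney.

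**Figure D1:**
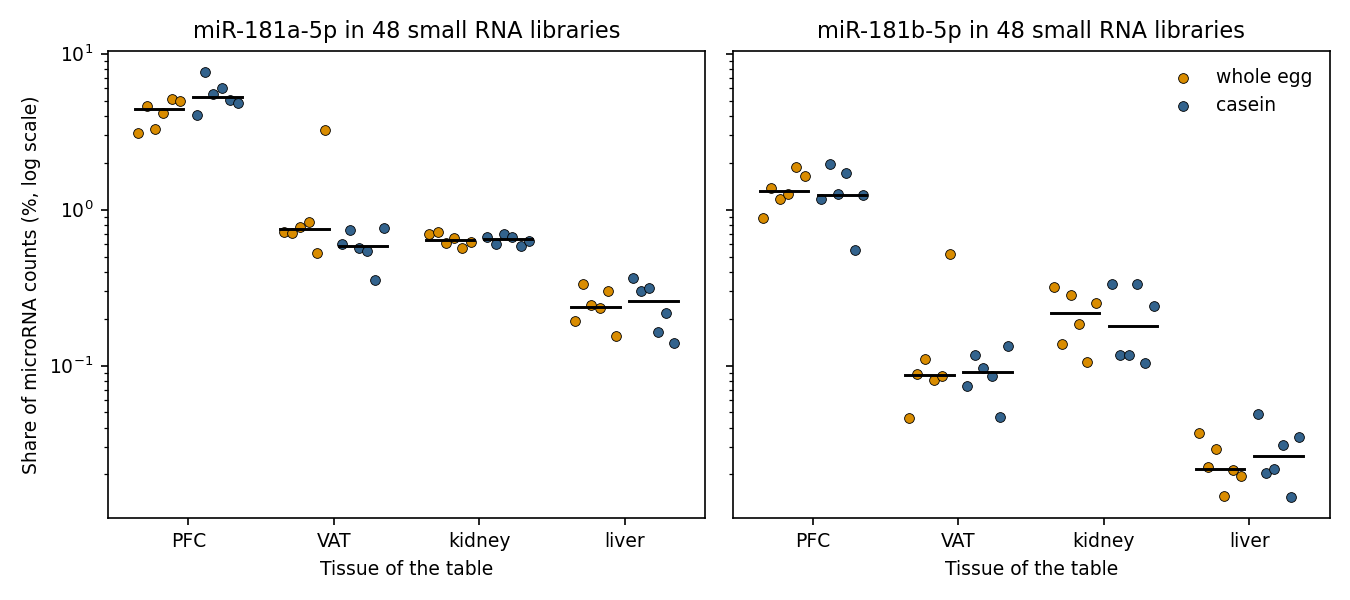
Share of microRNA counts (percent, log scale) of miR-181a-5p on the left and miR-181b-5p on the right in the 48 libraries by tissue, with egg rats left of casein rats in each pair, 1 point per rat and a bar at the median of 6. PFC stands highest for both, the lone high VAT point is animal 12, and the diet groups overlap in every tissue.

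The other 3 members were listed in PFC alone, and all of them were minor there. MiR-181d-5p, which lies in the chromosome 19 cluster, had a share of 0.0244% to 0.333% (median 0.183%), with animal 9 as the lowest and 0.154% as the next. Its cluster neighbour miR-181c-5p had a share of 0.0506% to 0.339% (median 0.0983%), and here animal 9 was the highest with 0.172% as the next. MiR-181a-1-3p, the opposite strand of the chromosome 13 miR-181a hairpin, was listed at 0 in animal 7, where no listed row had a count between 0 and 74, and had 0.0170% to 0.0522% in the other 11 libraries. That the tables of VAT, kidney and liver did not list these 3 members does not give their level there, because every listed row had at least 10 counts in at least 10 of its 12 libraries and scarcer microRNAs are not in the tables.

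The order of members was almost the same in all PFC libraries. In 11 of 12 it ran miR-181a-5p, miR-181b-5p, miR-181d-5p, miR-181c-5p and miR-181a-1-3p, and in animal 9 miR-181c-5p stood above miR-181d-5p. Of the summed family counts in PFC, miR-181a-5p took a median of 73.0%, miR-181b-5p 21.4%, miR-181d-5p 3.37%, miR-181c-5p 1.70% and miR-181a-1-3p 0.503%. The steps from miR-181a-5p to miR-181b-5p and from miR-181b-5p to miR-181d-5p were wider than the spread, since the ranges of share did not overlap, whereas those of miR-181d-5p and miR-181c-5p did. In all 12 libraries of VAT, of kidney and of liver miR-181a-5p exceeded miR-181b-5p. The 3p strand amounted to 0.00440 to 0.0124 counts per count of miR-181a-5p in the 11 PFC libraries where it was above 0.

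**Figure D2:**
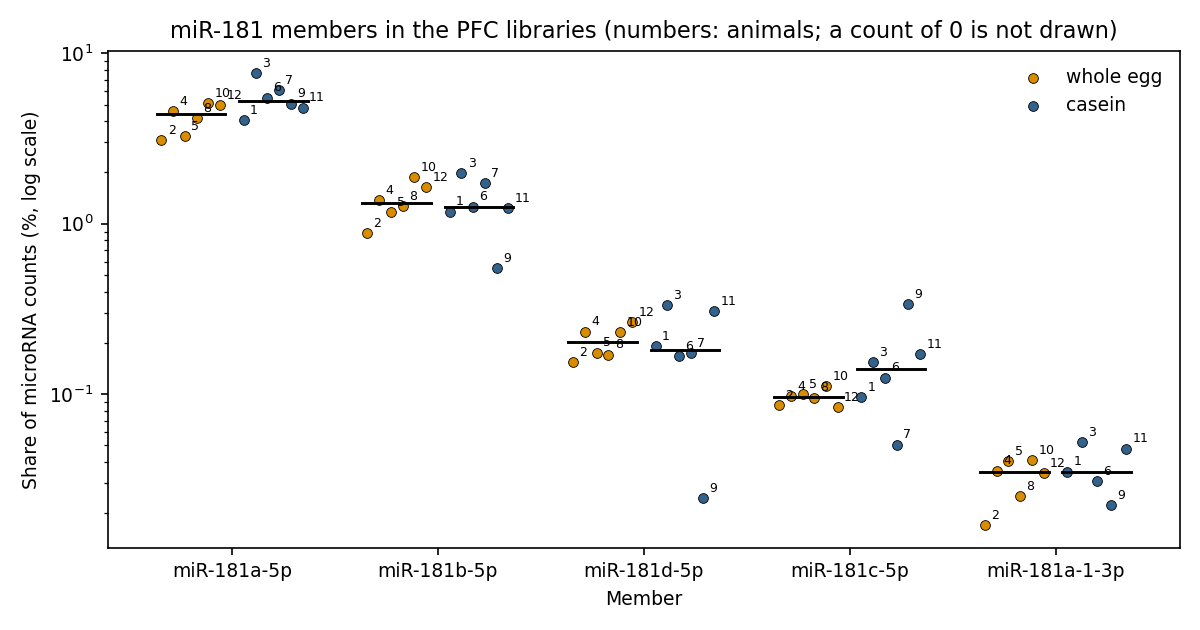
Share of microRNA counts (percent, log scale) of the 5 members in the 12 PFC libraries, egg left of casein, with the animal number beside each point and a bar at the median of the points drawn. The library of animal 9 is lowest for miR-181b-5p and miR-181d-5p and highest for miR-181c-5p, and animal 7, with a count of 0, is missing from miR-181a-1-3p.

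The ratio of miR-181b-5p to miR-181a-5p differed between tissues and, in kidney and liver, widely between rats. It was 0.108 to 0.370 in PFC (median 0.288), 0.0642 to 0.174 in VAT (median 0.150), 0.166 to 0.495 in kidney (median 0.331) and 0.0631 to 0.246 in liver (median 0.0959). In PFC animal 9 was lowest at 0.108, followed by animal 6 at 0.229. In kidney, values ran without overlap in 2 stretches, from 0.166 to 0.280 and from 0.383 to 0.495, and in liver from 0.0631 to 0.0714 and from 0.120 to 0.246. Each liver library held at least 122 counts of miR-181b-5p, and the widest counting interval there was 17.8% of the share to either side. These stretches were read from the sorted values and were not tested.

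**Figure D3:**
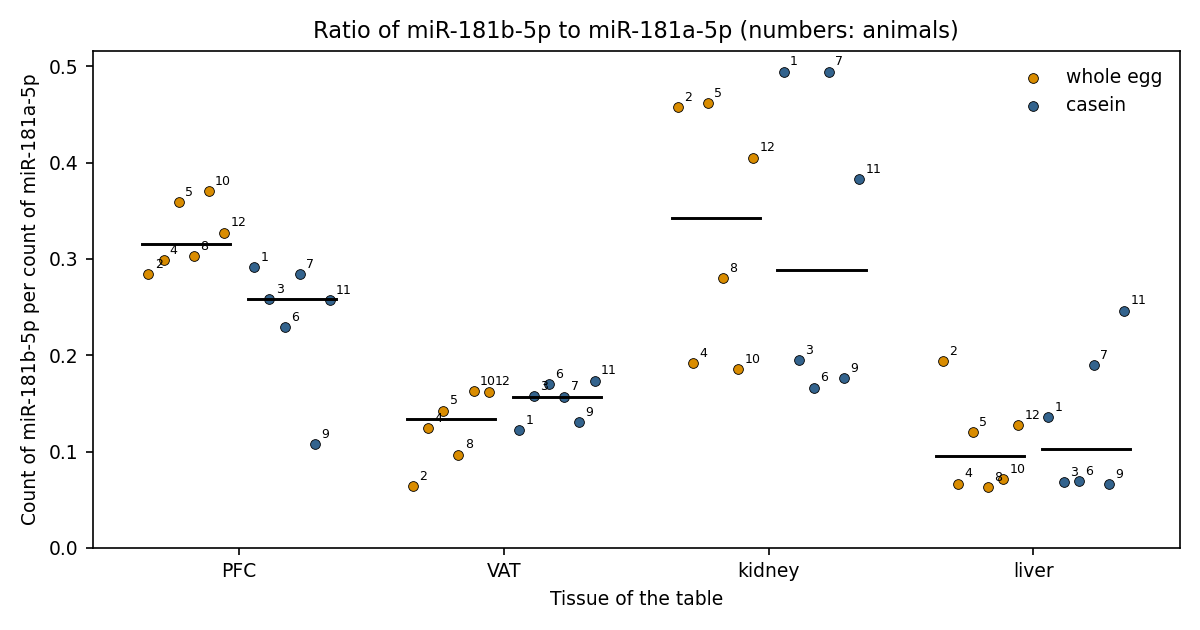
Counts of miR-181b-5p per count of miR-181a-5p in each library by tissue, egg left of casein, with animal numbers and a bar at the median of 6 rats. Liver and kidney each show an upper and a lower stretch, with egg and casein rats in both.

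The spread over rats depended on the member and on single libraries. In kidney the share of miR-181a-5p had a coefficient of variation of 7.68%, the lowest of the 58 rows of that table, whose median was 43.5%, and it was also the lowest with animal 9 or animal 12 left out. The coefficient for miR-181b-5p in the same libraries was 44.2%. In VAT the coefficients were 87.5% for miR-181a-5p and 104% for miR-181b-5p, and without animal 12 they were 21.8% and 30.6%. In PFC they were 25.2% for miR-181a-5p and 30.5% for miR-181b-5p. The PFC values of 59.2% for miR-181c-5p and 39.9% for miR-181d-5p came to 31.6% and 27.9% without animal 9.

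Tissues were compared with edgeR's quasi-likelihood test over the 39 microRNAs listed in all 4 tables, with Benjamini-Hochberg (BH) adjustment over the 39 and a threshold of 0.05. Fold changes were on counts scaled by the trimmed mean of M values (TMM), which assumes that most rows do not differ. The calls themselves did not meet this assumption, since most of the 39 rows were called in each comparison. With each rat left out in turn, 21 to 24 rows were called in VAT over liver and 29 to 30 in PFC over liver. Scaling by library totals alone moved the median log2 fold change of the 39 rows to between -0.50 and 0.85, against -0.21 to -0.11 with TMM. The distance of each member from the median of all rows is therefore given too.

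In PFC over VAT, both members were higher, with miR-181b-5p by 2.85 on the log2 scale (SE 0.27, adjusted p = 6.0e-13 by edgeR) and miR-181a-5p by 1.89 (SE 0.18, adjusted p = 8.8e-13). Of all 39 rows, 30.8% were called higher and 38.5% lower in PFC. MiR-181b-5p had the highest log2 fold change of the 39 rows in this comparison and miR-181a-5p ranked at place 4, and they lay 3.02 and 2.06 above the median of all rows. Without the 2 libraries that stood apart the log2 fold changes were 3.56 for miR-181b-5p and 2.43 for miR-181a-5p. Within rats, the PFC share of miR-181b-5p was 3.13 to 22.0 times the VAT share (median 15.7), and that of miR-181a-5p 1.55 to 14.3 times (median 6.60), the lowest of both being animal 12.

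In PFC over liver, the members showed their widest differences. The log2 fold change was 4.69 (SE 0.30, adjusted p = 2.7e-19) for miR-181b-5p, at place 1 of 39, and 3.32 (SE 0.20, adjusted p = 2.4e-20) for miR-181a-5p, at place 2, by edgeR. The background was 30.8% of rows called higher and 43.6% called lower in PFC. The ratio of shares within rats had a median of 56.6 for miR-181b-5p and 17.7 for miR-181a-5p, and all 12 rats were higher in PFC for both. The distance from the median of all rows was 4.86 for miR-181b-5p and 3.48 for miR-181a-5p.

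In PFC over kidney, the difference was 2.56 (SE 0.19, adjusted p = 1.2e-16) for miR-181a-5p and 2.40 (SE 0.27, adjusted p = 4.6e-11) for miR-181b-5p on the log2 scale by edgeR, at places 2 and 3. Of the 39 rows, 25.6% were called higher and 41% lower in PFC. The within-rat ratio had a median of 7.75 for miR-181a-5p and 5.91 for miR-181b-5p, again above 1 in all 12 rats. From the median of all rows miR-181a-5p lay 2.77 and miR-181b-5p 2.61 away. The 3 contrasts with PFC share its 12 libraries.

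Liver was the lowest of the 4 tissues for both members. Over liver, VAT was higher by 1.84 (SE 0.26, adjusted p = 4.6e-08) for miR-181b-5p and by 1.42 (SE 0.18, adjusted p = 2.6e-09) for miR-181a-5p on the log2 scale by edgeR, where 30.8% of rows were called higher in VAT and 30.8% lower. Kidney over liver was higher by 2.29 (SE 0.27, adjusted p = 3.5e-10) for miR-181b-5p and by 0.76 (SE 0.18, adjusted p = 2.2e-04) for miR-181a-5p, where 30.8% of rows were called higher in kidney and 28.2% lower. All 12 rats had lower shares of both members in liver than in their own VAT or kidney. Against the median of all rows, VAT over liver stood at 1.95 for miR-181b-5p and 1.53 for miR-181a-5p, and kidney over liver at 2.40 for miR-181b-5p and 0.86 for miR-181a-5p.

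VAT over kidney was the comparison in which the members parted and in which calls rested on the processing. MiR-181a-5p was higher in VAT by 0.67 (SE 0.18, adjusted p = 0.0013 by edgeR), beside 35.9% of rows called higher in VAT, but without the 2 libraries that stood apart the value was 0.22 (adjusted p = 0.163), without animal 11 it was 0.36 (adjusted p = 0.0782), and with library totals alone 0.35 (adjusted p = 0.107). The log2 fold change of miR-181b-5p was -0.45 (SE 0.26, adjusted p = 0.114), and without the 2 libraries that stood apart it was -0.99 (adjusted p = 1.5e-04), while 35.9% of rows were called lower in VAT. With the rat as a block the value for miR-181b-5p was -0.55 (adjusted p = 0.0370), and leaving out animal 5, 9, 11 or 12 in turn also brought its adjusted p under the threshold, to between 7.98e-04 and 0.0421. Against the median of all rows the reported values were 0.78 for miR-181a-5p and -0.34 for miR-181b-5p.

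**Figure D4:**
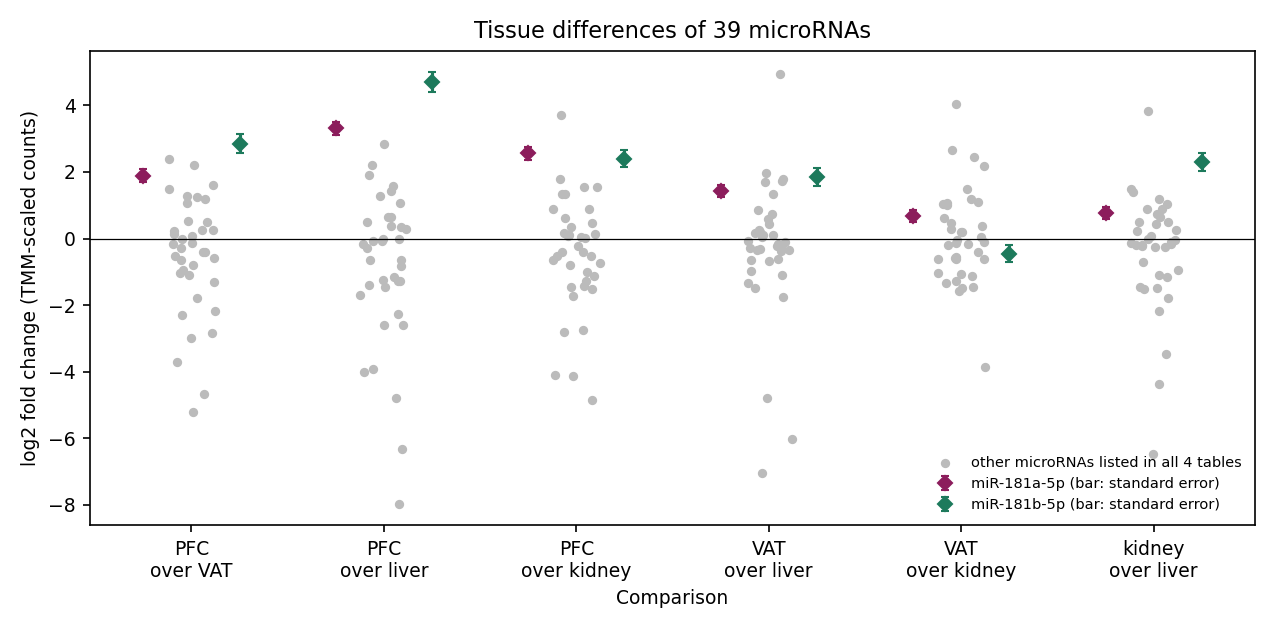
Log2 fold changes (TMM-scaled counts) of the 39 microRNAs listed in all 4 tables for the 6 tissue comparisons, with miR-181a-5p and miR-181b-5p as diamonds with their standard error and the other rows in grey. Both members lie near the top in the comparisons of PFC, and they lie on opposite sides of 0 in VAT over kidney.

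The microRNAs whose log2 TMM-scaled abundance ran most like those of miR-181a-5p over the 48 libraries, family members aside, were let-7i-5p (Pearson r = 0.80), miR-103-3p (0.75), miR-146b-5p (0.66), miR-125a-5p (0.55) and let-7e-5p (0.53). The points share tissues, rats and the TMM scaling. Within tissues, after the diet means were taken out, r for let-7i-5p was 0.43 in PFC, -0.46 in VAT, -0.73 in kidney and -0.01 in liver. Only miR-125a-5p of the 5 had an r above 0 in each tissue, from 0.13 in PFC to 0.66 in liver. The r of miR-181b-5p with miR-181a-5p was 0.63 in PFC, 0.89 in VAT, -0.86 in kidney and -0.39 in liver. In kidney the share of miR-181a-5p had a coefficient of variation of 7.68%, while the TMM factors ran from 0.831 to 1.30. The r values are of scaled abundance, and their sign need not hold for shares. The part of the scaling in them was not tested. In kidney 50% of rows and in liver 30.8% parted the same animals without overlap, as described under Other observations. The part of this division in the r values was not tested.

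The second question was whether the whole egg diet altered the members relative to casein. No row of any table passed a BH-adjusted p of 0.05 in edgeR, so the background of calls was 0% in each of the 4 tissues, and DESeq2 and limma-voom also called 0. At an unadjusted p under 0.05, 1.1% of PFC rows were higher and 2.2% lower in egg, 6.25% of VAT rows, 1.72% of kidney rows and 3.85% of liver rows were lower, and no row of these 3 tables was higher. None of the members was among these rows. The groups overlapped for all members in all tissues, and there was no row in any table whose diet groups did not overlap (0%).

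In PFC, miR-181a-5p had shares of 3.08% to 5.10% in egg rats (median 4.39%), against 4.04% to 7.63% in casein rats (median 5.28%). All 6 egg rats lay below the casein median, and the ranges overlapped. The log2 fold change was -0.34 (SE 0.17, 2 SE either side -0.69 to 0.0040), with an unadjusted p of 0.0690 and an adjusted p of 0.590 in edgeR, and 4 of the 91 rows had a smaller p. The fitted value was 0.04 without animal 3 and 0.03 without animal 5, so its sign turned when either rat was left out. The TMM scaling was computed anew in each of these fits, and its part in the turn was not tested.

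MiR-181c-5p in PFC had shares of 0.0836% to 0.111% in egg rats (median 0.0963%), against 0.0506% to 0.339% in casein rats (median 0.140%). The egg values were close together, lay within the casein range, and all 6 were below the casein median. The log2 fold change was -0.65 (SE 0.37, adjusted p = 0.602 by edgeR), and over the rats left out in turn it was -0.83 to -0.28. The value nearest 0, -0.28, was that without animal 9, whose removal left casein shares of 0.0506% to 0.172% (median 0.125%).

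The remaining PFC members showed smaller differences. MiR-181b-5p had 0.877% to 1.89% in egg rats (median 1.32%) and 0.548% to 1.97% in casein rats (median 1.25%), with a log2 fold change of 0.09 (SE 0.29). MiR-181d-5p had 0.154% to 0.264% in egg rats (median 0.203%) and 0.0244% to 0.333% in casein rats (median 0.183%), with a log2 fold change of 0.09 (SE 0.43). For miR-181a-1-3p the medians were 0.0350% in egg and 0.0330% in casein rats, and the fitted value of 0.05 had an SE of 0.81. The adjusted p of these 3 members was 0.953 to 0.977 in edgeR. Without animal 9 the lowest casein share was 1.18% for miR-181b-5p and 0.166% for miR-181d-5p, and the log2 fold changes were -0.07 for miR-181b-5p, -0.14 for miR-181d-5p, -0.03 for miR-181a-1-3p and -0.37 for miR-181a-5p, none of them called. The ratio of miR-181b-5p to miR-181a-5p in PFC was 0.284 to 0.370 in egg rats (median 0.315), against 0.108 to 0.291 in casein rats (median 0.258), so that the ranges met only at their ends, where egg animal 2 lay below casein animal 1. Without animal 9 the casein ratios were 0.229 to 0.291 (median 0.258). The difference of this ratio between diets was not tested, and ratios of other rows were not taken as a background.

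In VAT, miR-181a-5p had shares of 0.527% to 3.22% in egg rats (median 0.747%), against 0.355% to 0.763% in casein rats (median 0.588%). In 5 of 6 egg rats the share was above the casein median, and the highest was animal 12. The fitted difference on the log2 scale was 0.68 (SE 0.40, 2 SE either side -0.13 to 1.48, adjusted p = 0.621 by edgeR), and without animal 12 it was 0.07. MiR-181b-5p had 0.0460% to 0.523% in egg rats (median 0.0866%) and 0.0464% to 0.133% in casein rats (median 0.0911%), and the fitted difference of 0.51 on the log2 scale (SE 0.52, adjusted p = 0.818) was -0.32 without animal 12.

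In kidney, miR-181a-5p had 0.563% to 0.719% in egg rats (median 0.641%), against 0.587% to 0.700% in casein rats (median 0.649%). These narrow ranges covered each other almost entirely. The log2 fold change was -0.14 (SE 0.19, 2 SE either side -0.51 to 0.23). MiR-181b-5p had 0.105% to 0.318% in egg rats (median 0.218%) and 0.103% to 0.331% in casein rats (median 0.179%), with a log2 fold change of -0.05 (SE 0.26). The upper stretch of the kidney ratio held 3 egg and 3 casein rats. Both adjusted p were 0.978 in edgeR.

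In liver, miR-181a-5p had 0.154% to 0.333% in egg rats (median 0.238%), against 0.140% to 0.362% in casein rats (median 0.259%), and miR-181b-5p had 0.0147% to 0.0371% in egg rats (median 0.0218%), against 0.0144% to 0.0492% in casein rats (median 0.0264%). For each member 2 of 6 egg rats were above the casein median. The log2 fold changes were -0.10 (SE 0.24) for miR-181a-5p and -0.29 (SE 0.27, 2 SE either side -0.82 to 0.25) for miR-181b-5p, with adjusted p of 0.940 and 0.830 in edgeR.

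**Figure D5:**
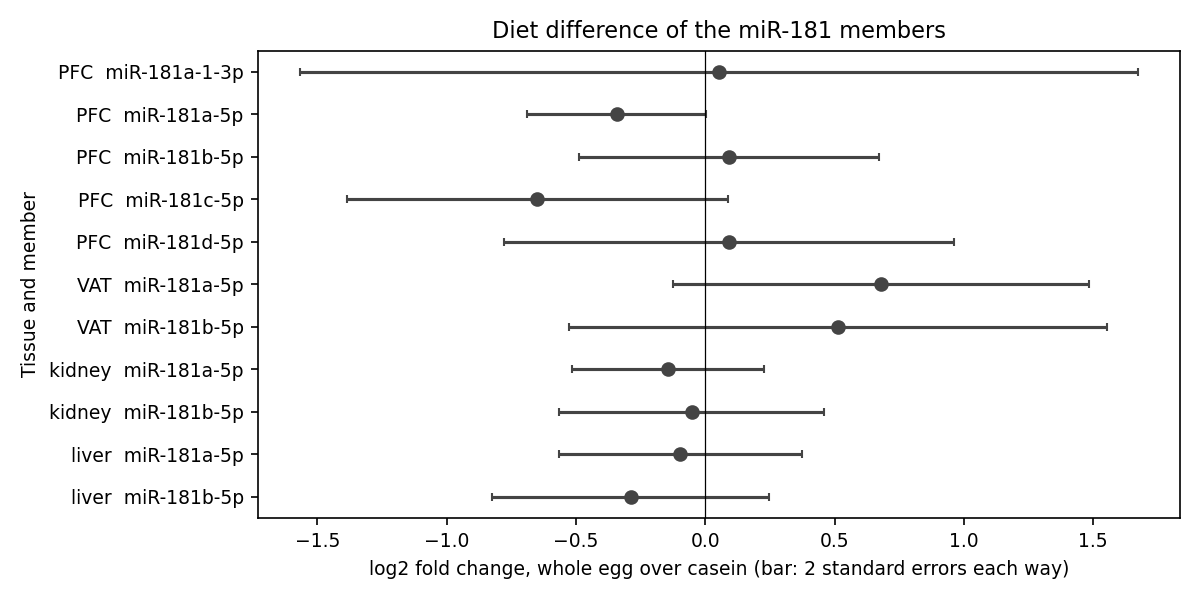
Log2 fold change of egg over casein for each member in each tissue, with bars of 2 standard errors to either side. Every bar reaches 0, and the bar of miR-181a-1-3p in PFC, which has a count of 0 in 1 casein library, is the widest.

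Whether the diet difference varied between the 4 tissues was tested by the interaction of tissue and diet over the 39 shared rows. MiR-181a-5p had an unadjusted p of 0.0411 and an adjusted p of 0.595, and miR-181b-5p had an unadjusted p of 0.601 and an adjusted p of 0.844 in edgeR. No row passed the adjusted threshold (0%), and 7.69% of rows had an unadjusted p under 0.05. Without the 2 libraries that stood apart the adjusted p of miR-181a-5p was 0.993.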

How the data were processed

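Small RNA was extracted with a SPLIT kit (Lexogen) from PFC, VAT, kidney and liver of 12 rats, libraries were made with a Lexogen small RNA kit and were sequenced on an Illumina instrument. The authors checked reads with FastQC, trimmed adapters with BBDUK, aligned with Bowtie through smallrnaseq against RNAcentral references and deposited raw counts per microRNA, 1 table per tissue. Every row had at least 10 counts in at least 10 of 12 libraries. FastQC and DESeq are the tools in the submitters' processing notes, with no version. Diets were read from the column headings, since the sample labels do not give them. The deposited gene counts and the authors' own comparison tables were not used, and 0 count columns were left without a sample.

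TMM scaling was followed by the quasi-likelihood test of edgeR (robust, R 4.3.3, edgeR 4.0.16) for rows with at least 10 counts in 6 libraries of a tissue, which all rows passed. Diet was fitted per table, and tissues and the interaction jointly over 39 rows, without a rat block in the main fits. Log2 abundance used a prior count of 2. Alternatives used DESeq2 1.42.0 and limma 3.58.1, and the leaving out of 2 libraries was chosen after the data had been seen. Rows named are all members, the 5 microRNAs most like miR-181a-5p and tissue markers. The members and lists were chosen with earlier results of these data known. Tests were checked on simulated counts with known changes. Each comparison was simulated in a single draw with few changed rows, so the percentages are coarse. For diet, 2-fold changes were recovered in 30% of 10 changed rows in PFC, 42.9% of 7 in VAT, 50% of 6 in kidney and 50% of 6 in liver. Diet changes of 4-fold were recovered in 62.5% to 83.3% of the 4 to 8 changed rows. For the interaction the recovery was 25% of 4 rows at 2-fold and 100% of 4 rows at 4-fold. Those counts were drawn from a profile shared by all tissues, and the sign of the change was not checked. Each fit made 0 or 1 false calls, so a 2-fold diet change could often go uncalled.

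Libraries with the same animal number came from the same rat by the labels. Deviations from the diet means correlated within rats with a median of 0.33 for kidney and liver. For the other pairs of tissues it was -0.05 to 0.09. Medians between different rats were -0.03 to 0.02, so outside kidney and liver the correlations do not bear out the pairing. Kidney and liver are the tissues in which many rows parted the same animals. Even the most alike library pair in a table differed, with a chi-square of 31.6 times its degrees of freedom, so no library was a copy. The 95% Wilson interval of a share reached at most 18.1% of the share to either side, and covers counting error only. Mature sequences and loci came from RefSeq tables of GRCr8, in which 96 of 107 rows were named.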

Additional observations from a re-analysis of the deposited data

Results flagged for a closer look

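Within the diet groups of 6 rats, a member's share was looked at for a sample far from the others, by Dixon's ratio of the gap to the whole range, in 22 groups. In VAT, the egg rat 12 stood apart for miR-181a-5p, with 3.22% against 0.832% for the next rat, a ratio of 0.887. It also stood apart for miR-181b-5p, with 0.523% against 0.111% for the next rat, a ratio of 0.864. Both ratios passed the 95% critical value, and chance flags about 1 in 20 groups. Both values came from the same library, the shallowest of the series at 44390 counts, which also held 1.82% miR-9a-5p and 1.67% miR-122-5p, each above the other VAT libraries, and the part of these in the shares was not tested. The ratio of miR-181b-5p to miR-181a-5p of this library lay inside the VAT range.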

How the results depend on the processing

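The counts of rows called, per tissue comparison and diet comparison, stayed within 1.5 times the reported ones in all alternatives run. The tissue calls of both members were kept, with the same sign, under DESeq2's size factors, no filter, library totals, the rat as a replicate block, DESeq2's Wald test, limma-voom, separate pairs, and each rat left out, except in VAT over kidney. There, beside the values given above, miR-181b-5p was called with library totals (-0.83) and limma-voom (-0.99). The replicate block, which pairs the libraries of a rat, changed no other call.

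With the rows listed in all 4 tables as the denominator, the median family share in PFC was 11.0%, and without the most abundant microRNA of each table it was 8.71% in PFC, 1.47% in VAT, 1.18% in kidney and 0.446% in liver. PFC stayed highest and liver lowest, but without the most abundant microRNA VAT stood above kidney, whereas the reported medians were 0.777% in VAT and 0.863% in kidney.

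No diet call was made under any alternative, but uncalled signs turned: VAT miR-181b-5p with limma-voom (-0.40), kidney miR-181a-5p and miR-181b-5p with library totals (0.0066 and 0.0455), and liver miR-181a-5p with DESeq2's size factors or Wald test (0.0326 and 0.0325). The cause was not tested. With each rat left out in turn, the log2 fold change of egg over casein ran in PFC from -0.41 to 0.0444 for miR-181a-5p, -0.0695 to 0.54 for miR-181b-5p, -0.14 to 0.56 for miR-181d-5p and -0.21 to 0.44 for miR-181a-1-3p, in VAT from -0.32 to 0.71 for miR-181b-5p, in kidney from -0.16 to 0.0724 for miR-181b-5p, and in liver from -0.21 to 0.18 for miR-181a-5p. For VAT miR-181a-5p DESeq2 gave no adjusted p. The 6 rats per diet and shares of near-identical sequences limit what the diet comparison can show.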

Other observations

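The ratio of miR-181b-5p to miR-181a-5p had the same 6 rats highest in liver and in kidney, in a different order. In liver it was 0.246 in animal 11, 0.194 in animal 2, 0.189 in animal 7, 0.136 in animal 1, 0.128 in animal 12 and 0.120 in animal 5, and then 0.0714 in animal 10, 0.0690 in animal 6, 0.0682 in animal 3, 0.0667 in animal 4, 0.0664 in animal 9 and 0.0631 in animal 8. In kidney animals 1 and 7 had 0.495, animal 5 had 0.462, animal 2 had 0.458, animal 12 had 0.405 and animal 11 had 0.383, followed by 0.280 in animal 8, 0.195 in animal 3, 0.192 in animal 4, 0.186 in animal 10, 0.176 in animal 9 and 0.166 in animal 6. The upper stretch held 3 rats on egg and 3 on casein. In PFC and VAT these animals were mixed among the others.

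In kidney the difference lay in miR-181b-5p, whose share was 0.241% to 0.331% in animals 1, 2, 5, 7, 11 and 12 and 0.103% to 0.186% in the other 6, while miR-181a-5p was 0.611% to 0.694% in the named animals and 0.563% to 0.719% in the rest. Many other rows parted the same animals with no overlap of shares. These were 29 of the 58 kidney rows (50%) and 16 of the 52 liver rows (30.8%), against 1 of 91 rows in PFC and 0 of 64 in VAT, so the division was not particular to the miR-181 family. In kidney, miR-10a-5p was 12.9% to 16.6% in the named animals and 17.9% to 32.2% in the rest, and miR-199a-3p was 0.181% to 0.234% in the named animals and 0.0784% to 0.114% in the rest. There, miR-9a-5p was 0.0516% to 0.0794% in the named animals and 0.129% to 0.487% in the rest. In liver, miR-10a-5p was 4.08% to 8.59% in the named animals and 13.5% to 23.5% in the rest, miR-10b-5p was 0.185% to 1.24% in the named animals and 1.28% to 2.51% in the rest, and erythroid miR-486 was 1.22% to 16.5% in the named animals and 0.0284% to 0.0973% in the rest. The sets were read from the outcome itself, so they are no groups of the study and carry no test. The count columns of the liver table list the animals in the order 3, 9, 6, 10, 4 and 8, then 1, 11, 7, 12, 2 and 5, and the named animals also stand next to each other in the kidney table. The labels name no preparation or sequencing batch, what the column order stands for is not given in the sources used here, and its part in the division was not tested.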
